A study of Mus musculus with 13 samples.

Results

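The Hox genes encode homeodomain transcription factors that give cells their position along the body. They lie in 4 clusters, Hoxa on chromosome 6, Hoxb on chromosome 11, Hoxc on chromosome 15 and Hoxd on chromosome 2 of the mouse, and their order within a cluster, counted as paralog groups, follows the order in which they are used from head to tail. Fibroblasts keep a Hox pattern of the site they come from long after they have been taken into culture, while pluripotent stem cells hold the clusters under Polycomb repression. The Hox genes were taken as the transcript clusters with a single Hox symbol in the platform annotation, 32 genes among 14860 named genes and 23332 transcript clusters (array features that group the probes of a locus). They were 8 of the 11 RefSeq genes of Hoxa, 10 of 10 in Hoxb, 8 of 9 in Hoxc and 6 of 9 in Hoxd. Hoxa3 and Hoxd4 shared a transcript cluster with another gene and were not counted, and the remaining genes of the clusters were not analysed here. Paralog groups 1 to 3 were counted as anterior (6 genes), 4 to 8 as central (13) and 9 to 13 as posterior (13).

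RNA was measured on 13 Affymetrix mouse exon arrays, 1 per condition, during the reprogramming of mouse embryonic fibroblasts (MEFs) to induced pluripotent stem (iPS) cells by doxycycline (Dox)-inducible factors. The iPS cells were 6C secondary iPS cells, placed at day 30, and 6C primary iPS cells. They are described as no longer dependent on Dox, although their agent label names it. Dox, at 1.5 µg/ml, was given to 6C secondary MEFs for 2, 5, 8, 11, 16 or 21 days and to 1B secondary MEFs for 5 days, and 1 further 1B culture had 5 days with Dox and then 5 days without. The untreated fibroblasts were parental MEFs, 6C secondary MEFs at day 0 and 1B secondary MEFs at day 0. All 6C and 1B fibroblasts carry the inducible factors and each line is a single line, so a line effect cannot be told apart from a difference between conditions measured in 1 line. Values are the authors' log2 RMA values, and levels are not compared between genes because each probe set has its own response. Array medians ran between 6.34 and 6.67, the lowest on the 6C day 0 array. The arrays carry 4 kinds of array name, and only 1 of these sets, with 6 arrays, contained both iPS cells (primary) and untreated cells (parental MEFs). In these whole cultures, fewer cells with a Hox RNA and less of it per cell cannot be told apart.

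The pluripotency markers followed the labels at both ends of the process. The fibroblast markers did so more closely in primary than in secondary iPS cells. Of 9 pluripotency markers, 8 were called higher in iPS cells and 0 lower. Of 12 fibroblast markers, 4 were called lower and 0 higher, and the mean level over the 12 was 9.27 log2 units in secondary and 6.37 in primary iPS cells, against 10.42 to 11.96 on the 3 untreated arrays. On the 6C array at day 21 this mean was 8.94, below that of secondary iPS cells.

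Hox genes differed in how much they moved. The range of a gene over the 13 arrays had a median of 1.78 log2 units among the Hox genes, against 1.67 among all transcript clusters, and 13 of 32 (40.6%) spanned over 2 units, against 38.0% of all. Hoxc8, a gene of the thoracic region, spanned 4.29 units, Hoxc5, a gene of the neck and upper trunk, 4.14, and Hoxd13, the gene of the digits and distal limb, 4.08. At the other end, 6 genes spanned less than 1 unit, with the smallest range, 0.61, in Hoxd11. Hoxd11, which acts with Hoxa11 in the forearm, overlaps Hoxd10 in RefSeq and is its neighbour, and Hoxd10 spanned 3.56 units.

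**Figure D1:**
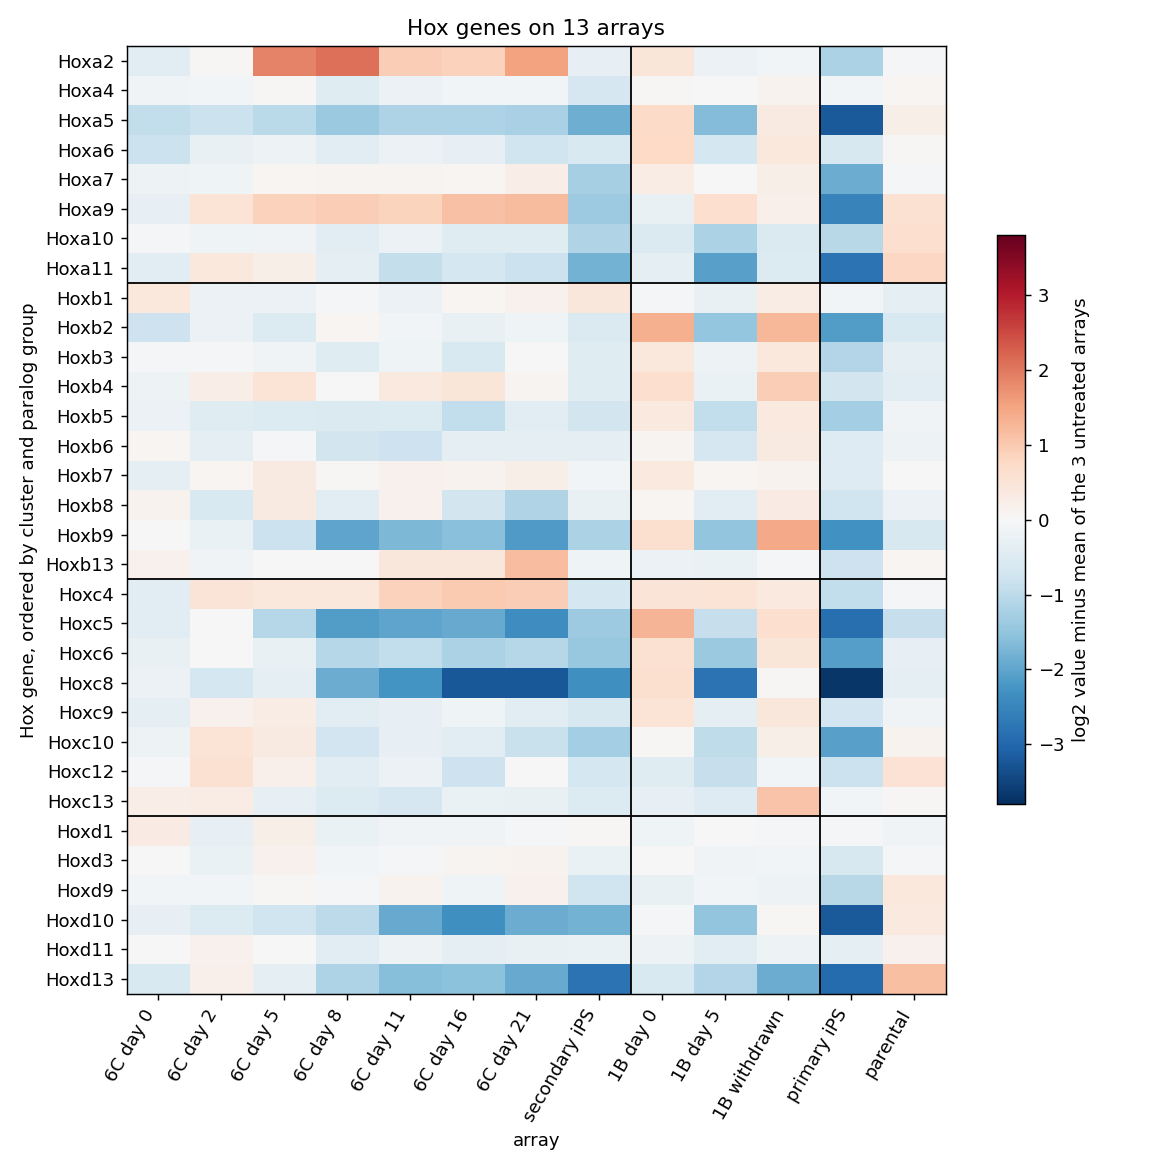
Each cell is the log2 value of 1 Hox gene (vertical axis, by cluster and paralog group) on 1 array (horizontal axis) minus the mean of that gene over the 3 untreated arrays; blue is lower and red higher. Lower values of Hoxa5, Hoxa11, Hoxc8, Hoxd10 and Hoxd13 fill the iPS columns, Hoxa2 and Hoxa9 are higher on the 6C arrays at days 5 to 21, and the 1B column at day 5 is lower between 2 higher 1B columns for most Hoxb and Hoxc genes.

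In iPS cells, 7 Hox genes of the central and posterior groups fell relative to untreated fibroblasts (Hoxa7, Hoxa11, Hoxc6, Hoxc8, Hoxc10, Hoxd10 and Hoxd13), and no Hox gene was called higher. The comparison set 2 iPS arrays against 3 untreated arrays in limma over all transcript clusters, where a call needed an adjusted p (Benjamini-Hochberg, over all transcript clusters) under 0.05 together with a 2-fold change or more. By that rule 7 of 32 Hox genes (21.9%) were lower, against 3.32% of all transcript clusters, and 0 were higher, against 5.44% of all. The difference iPS minus untreated was below 0 for 31 of 32 genes (30 of 32 after centring, where Hoxd1 was at 0.03), with a median of -0.79 log2 units, against -0.03 over all transcript clusters. Both iPS arrays lay below all 3 untreated arrays for 23 of the 32 genes (71.9%), against 22.1% of all transcript clusters, and above all 3 for 0, against 22.2%. An unadjusted p under 0.05 was found for 14 of the 32, against 27.4% of all transcript clusters.

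Of the central genes, 3 of 13 fell. Hoxc8, which patterns the thoracic skeleton and the motor neurons of the forelimb, read 7.65 in secondary and 6.29 in primary iPS cells, against 9.59 in parental, 9.75 in 6C and 10.58 in 1B untreated fibroblasts. It fell by 3.00 log2 units (SE 0.51, limma adjusted p = 0.0288), and the groups were separated by more than 1 unit. Hoxc6, another gene of the thoracic region, read 6.01 in secondary and 5.36 in primary iPS cells, against 7.15, 7.19 and 8.03 in parental, 6C and 1B fibroblasts, and fell by 1.77 (SE 0.39, limma adjusted p = 0.0481). Hoxa7, which acts in the thoracic vertebrae, read 7.26 in secondary and 6.63 in primary iPS cells, against 8.46, 8.32 and 8.80 in parental, 6C and 1B fibroblasts, and fell by 1.58 (SE 0.31, limma adjusted p = 0.0377). In each of these genes the primary iPS array was the lower of the 2.

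Of the posterior genes, 4 of 13 fell. Hoxd13 read 6.83 in secondary and 6.71 in primary iPS cells, against 10.79 in parental, 9.07 in 6C and 9.08 in 1B untreated fibroblasts. It fell by 2.88 log2 units (SE 0.57, limma adjusted p = 0.0386); the 2 iPS arrays were alike and the parental array stood above the other untreated arrays. Hoxd10, a gene of the lumbar spinal cord and hindlimb, read 6.64 in secondary and 5.22 in primary iPS cells, against 8.78, 8.13 and 8.36 in parental, 6C and 1B fibroblasts, and fell by 2.49 (SE 0.47, limma adjusted p = 0.0355). Hoxa11, which is needed for the forearm, the kidney and the uterus, read 6.67 in secondary and 5.65 in primary iPS cells, against 9.25, 8.07 and 8.09 in parental, 6C and 1B fibroblasts, and fell by 2.31 (SE 0.50, limma adjusted p = 0.0477). Hoxc10, active in lumbar motor neurons and hindlimb, read 5.62 in secondary and 4.86 in primary iPS cells, against 7.06, 6.73 and 6.97 in parental, 6C and 1B fibroblasts, and fell by 1.68 (SE 0.32, limma adjusted p = 0.0352). None of these groups overlapped.

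A further 5 genes had large differences of means and did not pass the threshold. Hoxa5, which acts in the neck vertebrae and the lung, read 6.20 in secondary and 4.87 in primary iPS cells, against 8.27, 7.11 and 8.78 in parental, 6C and 1B fibroblasts (difference -2.52, SE 0.62, limma adjusted p = 0.0602). Hoxc5 read 6.14 in secondary and 4.66 in primary iPS cells, against 6.62, 7.12 and 8.80 in parental, 6C and 1B fibroblasts (-2.12, SE 0.76, limma adjusted p = 0.14), the untreated arrays being 2.17 units apart. Hoxa9, a regulator of blood progenitors and of leukaemia, read 6.34 in secondary and 5.20 in primary iPS cells, against 8.31, 7.42 and 7.45 in parental, 6C and 1B fibroblasts (-1.96, SE 0.46, limma adjusted p = 0.0559). In these 3 genes both iPS arrays lay below the untreated ones, with the spread within each group wider than in Hoxa7 or Hoxc10. Hoxb9, a gene of the rib-bearing trunk, read 7.59 in secondary and 6.50 in primary iPS cells, against 8.18, 8.81 and 9.42 in parental, 6C and 1B fibroblasts (-1.76, SE 0.49, limma adjusted p = 0.081). Hoxb2, which acts in the hindbrain, read 7.04 in secondary and 5.46 in primary iPS cells, against 7.0, 6.80 and 8.92 in parental, 6C and 1B fibroblasts (-1.32, SE 0.78, limma adjusted p = 0.348), so its groups overlapped and the 1B array was the high one.

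**Figure D2:**
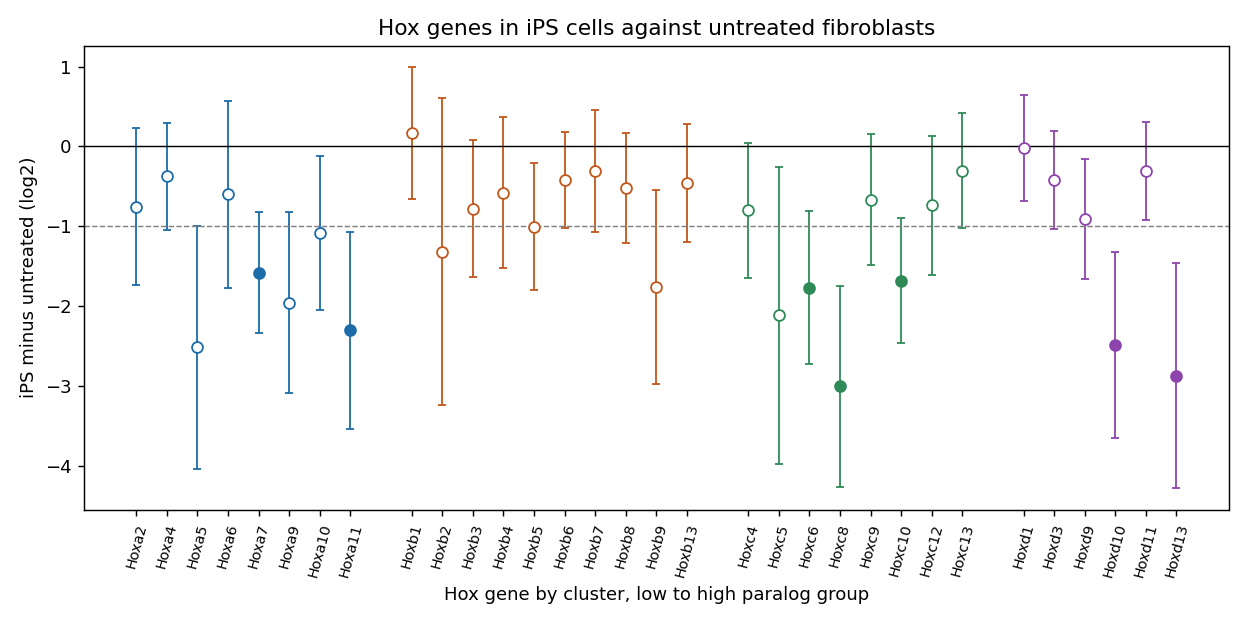
Points are the limma difference iPS minus untreated (log2, vertical axis) for each Hox gene (horizontal axis, by cluster and paralog group), bars are 95% confidence intervals, filled points passed the adjusted p and fold thresholds, and the dashed line marks 2-fold lower. The 7 filled points lie between -3.00 and -1.58, in Hoxa, Hoxc and Hoxd.

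By cluster, the genes called lower were 2 of 8 in Hoxa, 0 of 10 in Hoxb, 3 of 8 in Hoxc and 2 of 6 in Hoxd. The medians of iPS minus untreated were -1.33 for Hoxa, -0.55 for Hoxb, -1.24 for Hoxc and -0.67 for Hoxd. The Hoxd median lay between a pair of strongly lowered genes, Hoxd10 and Hoxd13, and genes that hardly differed: Hoxd1, an anterior gene with a role in sensory neurons, read 6.27 in secondary and 6.17 in primary iPS cells, against 6.10, 6.55 and 6.08 in parental, 6C and 1B fibroblasts (difference -0.02, limma adjusted p = 0.977), and Hoxd11 differed by -0.31 (adjusted p = 0.499). By position, 0 of 6 anterior, 3 of 13 central and 4 of 13 posterior genes were called lower, with medians of -0.59, -0.80 and -1.09. The untreated means of the anterior genes were 5.94 (Hoxd3), 6.06 (Hoxa2), 6.24 (Hoxd1), 6.47 (Hoxb1), 6.82 (Hoxb3) and 7.57 (Hoxb2). The median of all values was 6.51. Untreated means of the genes called lower ran between 6.92 (Hoxc10) and 9.97 (Hoxc8). The part of a low starting level in these medians by position was not tested. The order of the central and posterior medians was not stable. With central genes taken as paralog groups 5 to 8, their median was -1.29, below the posterior one. Without the parental array the central median was -0.84 and the posterior -0.77. Whether clusters or positions differed from each other was not tested, since the genes of a cluster are not replicates.

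Of the genes at the ends of the clusters, Hoxa11 and Hoxd13 passed the test and the others did not. Hoxa2, an anterior gene of Hoxa and the identity gene of the hyoid arch, read 5.74 in secondary and 4.86 in primary iPS cells, against 6.01, 5.65 and 6.52 in parental, 6C and 1B fibroblasts (difference -0.75, limma adjusted p = 0.295). Hoxb1, needed for the facial motor neurons, read 6.91 in secondary and 6.37 in primary iPS cells, against 6.12, 6.87 and 6.43 in parental, 6C and 1B fibroblasts (0.17, limma adjusted p = 0.811) and its mean was above that of the fibroblasts as deposited and after both other scalings. Hoxb13, the tail-end gene known from the prostate, read 5.75 in secondary and 5.13 in primary iPS cells, against 5.98, 6.06 and 5.67 in parental, 6C and 1B fibroblasts (-0.46, limma adjusted p = 0.394). Neither end of Hoxb passed the test. Hoxc4, a gene of the neck, read 5.96 in secondary and 5.69 in primary iPS cells, against 6.56, 6.21 and 7.12 in parental, 6C and 1B fibroblasts (-0.80, limma adjusted p = 0.2). Hoxc13, known from hair and nails, read 6.24 in secondary and 6.66 in primary iPS cells, against 6.81, 6.99 and 6.45 in parental, 6C and 1B fibroblasts (-0.30, limma adjusted p = 0.58), so in Hoxc the called genes were Hoxc6, Hoxc8 and Hoxc10 of the middle.

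With so few arrays the calls rested on each of them: the number of Hox genes called lower was 3 without the secondary iPS array (2.06% of all transcript clusters), 1 without parental MEFs (0.167% of all), and 0 without primary iPS cells (0.00429% of all), without 6C day 0 (0.72% of all) or without 1B day 0 (0.0171% of all). The share of all transcript clusters called lower thus dropped as well, against 3.32% with all 5 arrays. The median over the Hox genes stayed between -1.05 and -0.62. The fibroblast markers were lower on the iPS arrays too, as given above, and their part in the Hox differences was not tested. Within the 1 set of array names that held both kinds of cell, primary iPS minus parental, 17 of 32 Hox genes were at least 2-fold lower (19.0% of all transcript clusters) and 0 higher (14.1% of all), with a median of -1.15 and no test.

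The 2 iPS arrays did not have the same Hox levels. In secondary iPS cells, 29 of 32 Hox genes read higher than in primary iPS cells, against 53.0% of all transcript clusters. When each array was centred on its median, 22 of 32 did, while 60.1% of all read lower in secondary iPS cells. After quantile normalization 23 of 32 did, while 50.2% of all read lower. At least 2-fold differences were found for 8 Hox genes higher in secondary cells (7.94% of all) and 0 lower (7.35% of all), with a median difference of 0.52 and no replicate of either condition. The 8 were Hoxb2 (1.57), Hoxc5 (1.48), Hoxd10 (1.42), Hoxc8 (1.36), Hoxa5 (1.33), Hoxa9 (1.14), Hoxb9 (1.10) and Hoxa11 (1.02), and Hoxd13 differed by 0.12. After centring, 5 were at least 2-fold higher (5.92% of all), with Hoxa9, Hoxb9 and Hoxa11 below 2-fold, and after quantile normalization 6 were (7.48% of all). The fibroblast markers moved with this difference: 12 of 12 were over 2-fold higher in secondary than in primary iPS cells, with a median difference of 2.54, and their part in the Hox difference was not tested.

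**Figure D3:**
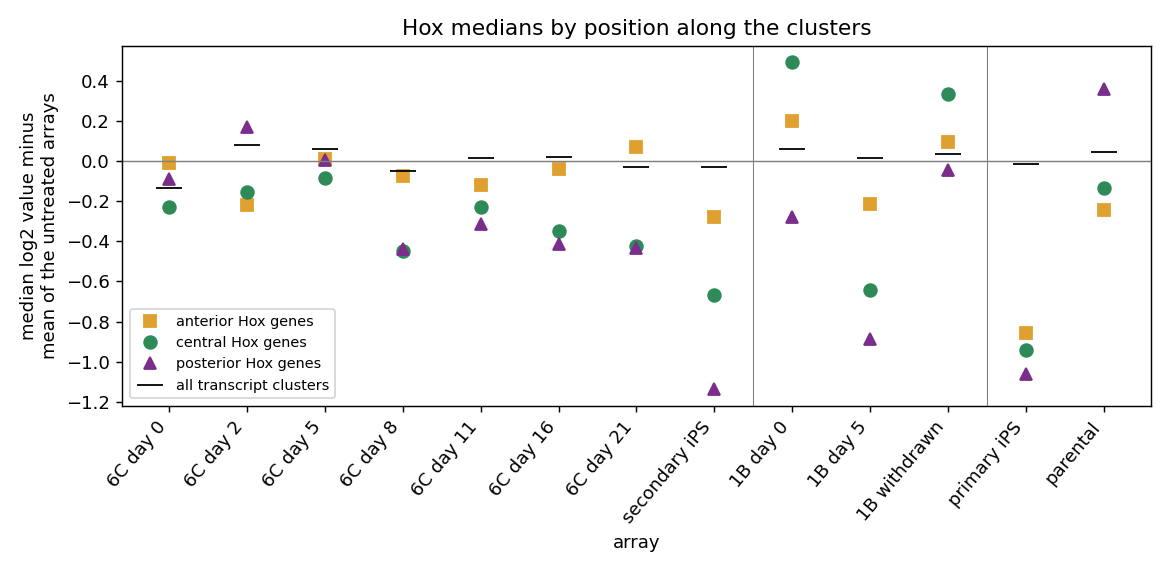
Median over the anterior, central and posterior Hox genes (symbols) and over all transcript clusters (bars) of the log2 value minus the mean of the 3 untreated arrays (vertical axis), for each of the 13 arrays (horizontal axis). The posterior median is -1.14 in secondary and -1.06 in primary iPS cells, and the anterior median -0.28 in secondary and -0.86 in primary iPS cells.

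Over the 6C series, single Hox genes took opposite courses and few changed by the test. The question of this series, 6C secondary MEFs at days 0, 2, 5, 8, 11, 16 and 21 of Dox and 6C secondary iPS cells, is when expression changes during reprogramming. A polynomial of day of degree 3 was fitted in limma, with a gene called at an adjusted p of the F test under 0.05 and a fitted change of at least 2-fold from day 0. By it 2 of 32 Hox genes (6.25%) were called, near the 6.36% of all transcript clusters: Hoxc8 and Hoxa9. An unadjusted p under 0.05 was found for 12 of the 32, against 24.6% of all.

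Hoxc8 fell. It read 9.75, 9.29, 9.63, 8.10, 7.69, 6.75 and 6.75 at days 0, 2, 5, 8, 11, 16 and 21, and 7.65 in secondary iPS cells (limma adjusted p = 0.0238). Its level was within 0.5 units of day 0 up to day 5, and its fitted change was -3.29 at day 21. Hoxa9 first rose. It read 7.42, 8.26, 8.60, 8.67, 8.56, 8.85 and 8.92 at days 0, 2, 5, 8, 11, 16 and 21, and 6.34 in secondary iPS cells (limma adjusted p = 0.0381), so it was higher on every Dox array than at day 0 and lowest in iPS cells.

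Other posterior genes came close to the threshold without passing it. Hoxd10 read 8.13, 7.92, 7.67, 7.42, 6.52, 6.10 and 6.53 at days 0, 2, 5, 8, 11, 16 and 21, and 6.64 in secondary iPS cells (limma adjusted p = 0.052). Hoxd13 read 9.07, 9.84, 9.32, 8.48, 8.04, 8.09 and 7.72 on the same days and 6.83 in secondary iPS cells (limma adjusted p = 0.058). Hoxb9 read 8.81, 8.55, 8.00, 6.81, 7.09, 7.20 and 6.64 on these days and 7.59 in secondary iPS cells (limma adjusted p = 0.068). All 3 read lower at days 8 to 21 than at days 0 to 5. Hoxa11 read 8.07, 8.87, 8.69, 8.11, 7.57, 7.79 and 7.66 on these days and 6.67 in secondary iPS cells (adjusted p = 0.161), with its lowest value in iPS cells. The mean level of the fibroblast markers rose up to day 5, was near day 0 at day 8 and fell from then to day 21. It was 10.98, 11.17, 11.57, 11.01, 10.53, 9.23 and 8.94 at days 0, 2, 5, 8, 11, 16 and 21, and 9.27 in secondary iPS cells. Of these 12 markers, 6 were called in the series with fitted values below day 0 at the end (2.49% of all transcript clusters). Among the 6, Lum and Dcn had their largest fitted change upward (4.22 and 2.85). The part of the fibroblast markers in the falling Hox genes was not tested.

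Among central genes, Hoxc5 read 7.12, 7.51, 6.43, 5.40, 5.50, 5.61 and 5.17 at days 0, 2, 5, 8, 11, 16 and 21, and 6.14 in secondary iPS cells (adjusted p = 0.0805). Its neighbour Hoxc4 ran the other way, with 6.21, 7.13, 7.03, 7.03, 7.49, 7.61 and 7.58 on these days and 5.96 in secondary iPS cells (adjusted p = 0.0859). Hoxa7 read 8.32, 8.37, 8.61, 8.63, 8.62, 8.59 and 8.77 on these days and 7.26 in secondary iPS cells (adjusted p = 0.0706); it was level under Dox, and the one low value was that of iPS cells. Hoxa2, an anterior gene, read 5.65, 6.09, 7.94, 8.15, 6.99, 6.95 and 7.59 on these days and 5.74 in secondary iPS cells (adjusted p = 0.24). It was over 2-fold above day 0 from day 5 to day 21. Macrophage markers had their highest mean level at day 8, as Hoxa2 did, with 6.12, 6.02, 7.73, 8.67, 7.56, 6.21 and 5.37 at days 0, 2, 5, 8, 11, 16 and 21, though at day 21, where Hoxa2 was high, they were below day 0; their part in the Hoxa2 values was not tested.

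**Figure D4:**
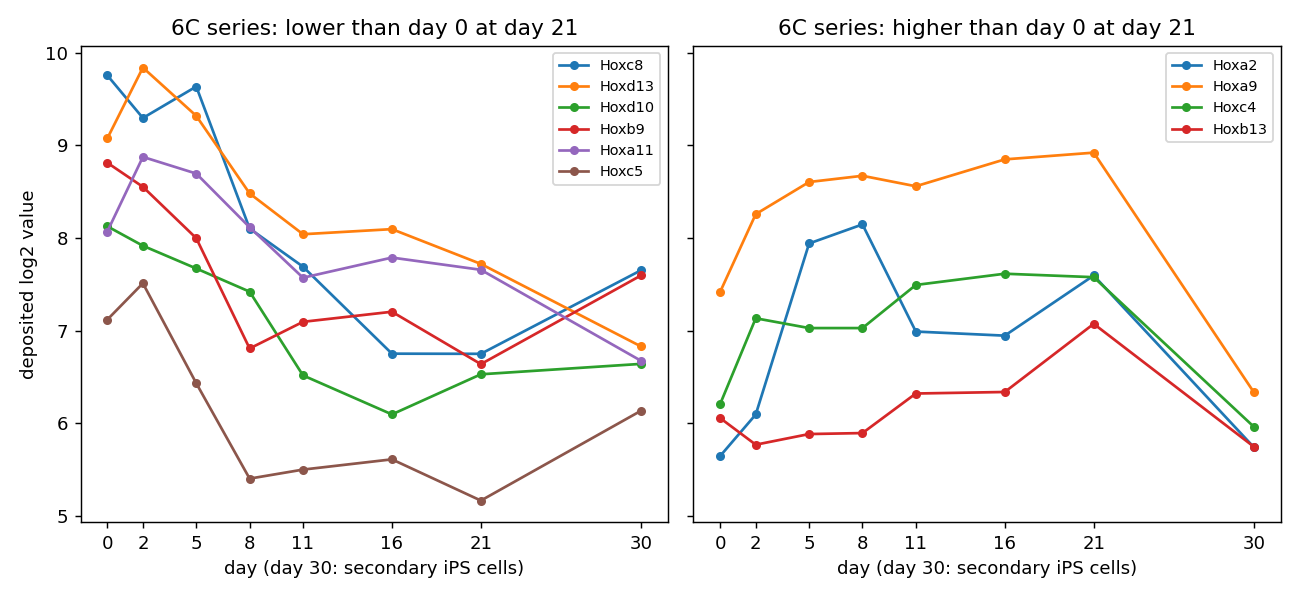
Deposited log2 values (vertical axis) of 10 Hox genes on the 6C arrays by day (horizontal axis, day 30 being the secondary iPS array), with genes lower at day 21 than at day 0 on the left and genes higher on the right; 1 array per point. Hoxc8 reaches 6.75 by day 16, and the genes of the right panel all fall back between day 21 and the iPS array.

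Because these courses rest on 1 array per day, the promoters of a pair that ran higher under Dox, Hoxa2 and Hoxa9, and of a pair that ran lower, Hoxd10 and Hoxd13, are shown to let them be compared. The RefSeq windows (GRCm38.p6) hold 250 bases before and 50 after the annotated start, and 17 of the 32 Hox genes had one, with 19 windows in all. Capitals mark letters searched on both strands: the pattern CCAAT, then TATAAA, then TGATTNAT (a composite letter pattern of Pbx and Hox proteins) and ATGCAAAT (the octamer). The windows are Hoxa2 at chr6:52164782-52165081 on the minus strand, Hoxa9 at chr6:52227321-52227620 on the minus strand, Hoxd10 at chr2:74691641-74691940 on the plus strand and Hoxd13 at chr2:74667975-74668274 on the plus strand, each written 5′ to 3′ on the strand of its gene.
Hoxa2: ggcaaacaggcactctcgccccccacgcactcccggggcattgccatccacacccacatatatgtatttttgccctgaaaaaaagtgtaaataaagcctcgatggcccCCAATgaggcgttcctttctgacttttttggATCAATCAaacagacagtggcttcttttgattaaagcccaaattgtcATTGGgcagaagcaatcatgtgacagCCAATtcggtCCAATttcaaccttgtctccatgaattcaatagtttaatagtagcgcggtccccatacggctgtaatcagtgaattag
Hoxa9: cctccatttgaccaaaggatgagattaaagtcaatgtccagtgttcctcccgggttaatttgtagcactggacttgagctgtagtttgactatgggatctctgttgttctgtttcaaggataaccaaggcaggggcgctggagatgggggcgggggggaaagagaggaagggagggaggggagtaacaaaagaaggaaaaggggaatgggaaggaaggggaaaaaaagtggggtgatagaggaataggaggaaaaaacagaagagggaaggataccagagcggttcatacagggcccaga
Hoxd10: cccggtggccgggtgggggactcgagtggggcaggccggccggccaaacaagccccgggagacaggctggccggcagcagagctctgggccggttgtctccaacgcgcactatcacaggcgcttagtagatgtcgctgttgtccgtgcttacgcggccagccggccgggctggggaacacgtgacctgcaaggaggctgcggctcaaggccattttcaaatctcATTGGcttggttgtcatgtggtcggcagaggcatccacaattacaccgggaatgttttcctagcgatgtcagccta
Hoxd13: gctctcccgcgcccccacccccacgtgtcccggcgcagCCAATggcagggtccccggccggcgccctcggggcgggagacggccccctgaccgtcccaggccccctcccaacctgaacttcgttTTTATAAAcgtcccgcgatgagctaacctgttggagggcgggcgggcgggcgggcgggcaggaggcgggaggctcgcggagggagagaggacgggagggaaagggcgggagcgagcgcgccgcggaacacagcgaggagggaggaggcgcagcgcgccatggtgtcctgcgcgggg
The window of Hoxa2 held 4 matches to CCAAT and 1 to TGATTNAT, which 3.22% of all 32851 windows hold and which was found in 2 Hox windows, those of Hoxa2 and of Hoxd11. That of Hoxa9 held none of the 4 patterns, that of Hoxd10 held 1 CCAAT, and that of Hoxd13 held 1 CCAAT and 2 overlapping matches to TATAAA, 1 on each strand. CCAAT was in 11 of the 19 Hox windows and 37.4% of all, TATAAA in 3 Hox windows and 13.6% of all, and ATGCAAAT in 0 Hox windows and 1.74% of all. CG dinucleotides numbered 9 in Hoxa2 and 4 in Hoxa9, 22 in Hoxd10 and 37 in Hoxd13, with a median of 15 in the Hox windows and 7 in all windows. These counts describe the letters only.

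Counted against day 0 on single arrays, with no test, at least 2-fold lower Hox genes numbered 0, 0, 3, 5, 4 and 6 at days 2, 5, 8, 11, 16 and 21 and 10 in secondary iPS cells. The same counts over all transcript clusters were 2.7%, 5.86%, 8.37%, 7.32%, 6.86%, 9.08% and 8.92%. Higher by at least 2-fold were 0, 2, 2, 3, 3, 4 and 0 Hox genes on these arrays, against 11.9%, 14.6%, 12.5%, 16.4%, 17.5%, 13.0% and 16.1% of all. Both other scalings moved these counts. After quantile normalization, 1, 5, 7, 10, 7 and 7 Hox genes were lower at these days and 14 in secondary iPS cells, against 5.1%, 8.76%, 10.1%, 10.9%, 10.8%, 11.0% and 12.4% of all, and 0, 1, 1, 1, 2, 3 and 0 were higher, against 7.0% to 12.5% of all. After centring, 0, 2, 4, 7, 7 and 6 were lower at these days and 12 in secondary iPS cells, against 5.32%, 11.0%, 11.8%, 12.3%, 10.4%, 10.8% and 12.7% of all, and 0, 1, 2, 1, 3, 3 and 0 were higher, against 6.73% to 12.4% of all. As deposited, the 4 higher at day 21 were Hoxa2, Hoxa9, Hoxb13 and Hoxc4 (without Hoxb13 after both other scalings), and the 6 lower ones were Hoxb8, Hoxb9, Hoxc5, Hoxc8, Hoxd10 and Hoxd13. The 6C day 0 array was the dimmest, and centring the arrays moved the median of all transcript clusters at day 2 minus day 0 to -0.03, against 0.25 as deposited; the Hox median of that difference was 0.09 as deposited, -0.20 after centring and -0.40 after quantile normalization, so no direction is given for it, nor for day 5. Between arrays that share a kind of name, 8 Hox genes were at least 2-fold lower at day 16 than at day 2 (9.83% of all) and 0 higher (6.87% of all), and 6 were lower in secondary iPS cells than at day 8 (9.25% of all) with 0 higher (10.5% of all). Day 0 and day 21 also share a kind of name, and there 6 were lower (9.08% of all) and 4 higher (13.0% of all), as given above. Secondary iPS cells set against day 21 had 5 lower (7.54% of all) and 0 higher (9.04% of all): Hoxa9 (-2.58), Hoxa2 (-1.85), Hoxc4 (-1.61), Hoxa7 (-1.51) and Hoxb13 (-1.33); after either other scaling 7 were lower, with Hoxa11 and Hoxd9 added (8.22% of all after quantile normalization and 9.01% after centring). These differences share the day 21 array with those above.

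Setting the array-name set as a block left 0 Hox genes called in the series, and also 0 of all transcript clusters, and leaving out 1 array at a time left 0 or 1 (0.647% to 3.18% of all). Without the iPS array the fitted end of Hoxa9 was 1.42 at day 21.

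After 5 days of Dox, the lines 6C and 1B differed in their Hox values, and no Hox gene changed in both by the test. With line as a block (4 arrays), limma called 0 of 32 Hox genes and 0 of all transcript clusters (0.0%) at an adjusted p under 0.05; 2 Hox genes, Hoxa9 and Hoxb9, had an unadjusted p under 0.05, against 7.59% of all. Hoxa9 read 8.60 in 6C and 8.36 in 1B at day 5, against 7.42 in 6C and 7.45 in 1B at day 0 (difference 1.05, SE 0.36, limma adjusted p = 0.655). Hoxb9 read 8.00 in 6C and 7.30 in 1B at day 5, against 8.81 in 6C and 9.42 in 1B at day 0 (-1.46, SE 0.48, limma adjusted p = 0.645). In both genes the lines moved the same way, and the 95% interval of the Hoxa9 difference ran between 0.04 and 2.05.

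In 1B alone, many Hox genes were low at day 5 and high again after withdrawal. At day 5, 11 of 32 (34.4%) were at least 2-fold below day 0, against 12.7% of all transcript clusters, and 0 were higher, against 9.49% of all. After either other scaling 10 were lower, without Hoxc10, and 1 higher, Hoxa9. Of all transcript clusters, 11.5% were lower and 10.9% higher after quantile normalization, and 10.7% lower and 11.9% higher after centring. As deposited, the median over the Hox genes was -0.62, against -0.01 over all. After 5 days without Dox, 13 were at least 2-fold above day 5 (10.8% of all) and 0 below (11.8% of all). Against day 0, withdrawn cells had 1 Hox gene higher (3.38% of all) and 1 lower (7.41% of all). There was 1 array per condition and no test, and the differences share arrays.

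Among the anterior and central genes, Hoxc8 read 10.58 at day 0, 7.17 at day 5 and 10.03 after withdrawal, the largest fall among the Hox genes in 1B. Hoxb2 read 8.92 at day 0, 6.10 at day 5 and 8.82 after withdrawal. Hoxa5 read 8.78 at day 0, 6.40 at day 5 and 8.39 after withdrawal. In 6C the differences of these genes between day 5 and day 0 were -0.12 for Hoxc8, 0.27 for Hoxb2 and -0.10 for Hoxa5. Hoxc5 read 8.80 at day 0, 6.64 at day 5 and 8.14 after withdrawal. Hoxc6 read 8.03 at day 0, 6.06 at day 5 and 7.90 after withdrawal. Withdrawn cells were thus within 0.7 units of day 0 in each of these 5 genes.

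Among the posterior genes, Hoxb9 read 9.42 at day 0, 7.30 at day 5 and 10.24 after withdrawal, ending above its day 0 value. Hoxa11 read 8.09 at day 0, 6.40 at day 5 and 7.95 after withdrawal. Hoxd10 read 8.36 at day 0, 6.92 at day 5 and 8.46 after withdrawal. Hoxc10 read 6.97, 5.95 and 7.16 at these points, and the remaining 2 of the 11, Hoxa6 and Hoxb5, changed by -1.44 and -1.30 at day 5. Hoxd13 took another course: it read 9.08 at day 0, 8.53 at day 5 and 7.78 after withdrawal, the one Hox gene over 2-fold below day 0 in withdrawn cells. Hoxc13 read 6.45 at day 0, 6.26 at day 5 and 7.83 after withdrawal, the one gene over 2-fold above.

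Fibroblast markers moved in the same arrays. In 1B their mean level read 10.4 before Dox, 6.78 at day 5 and 8.94 after withdrawal, and 11 of 12 were over 2-fold lower at day 5 (median -4.04), while in 6C at day 5 it was 0 of 12 (median -0.10). Their part in the Hox values of 1B was not tested.

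**Figure D5:**
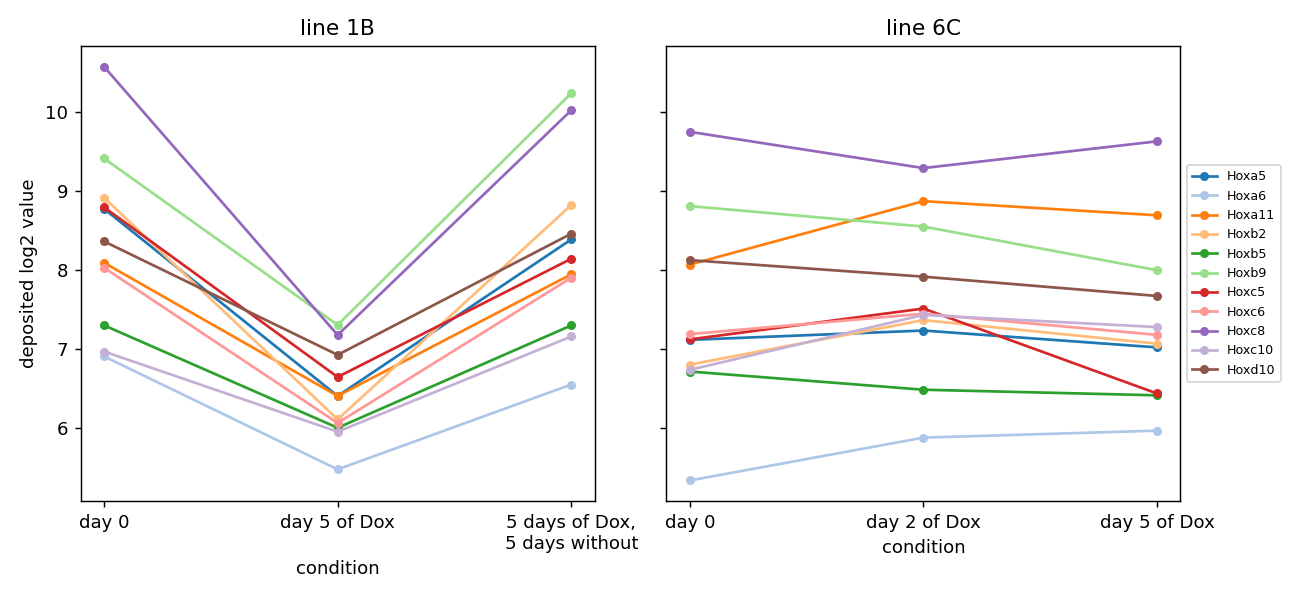
Deposited log2 values (vertical axis) of the 11 Hox genes at least 2-fold lower at day 5 than at day 0 in 1B, by condition (horizontal axis), in line 1B on the left and in line 6C on the right; 1 array per point. In 1B every line dips at day 5, and in 6C the largest fall from day 0 to day 5 among the 11 is that of Hoxb9.

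Single Hox genes differed between the untreated arrays, as did many other transcript clusters. Of the 32 Hox genes, 3 are 9.4% and 4 are 12.5%, to be read against the shares of all given below. With counts mostly near those shares, they are no result about the Hox genes as a set. In 6C at day 0, 0 Hox genes were at least 2-fold higher than in parental MEFs (3.75% of all) and 3 lower (13.9% of all), Hoxd13 (-1.72), Hoxa11 (-1.18) and Hoxa5 (-1.16). The 6C day 0 array had the lowest median, and of the 3 only Hoxd13 was at least 2-fold lower after centring (-1.45, 8.85% of all lower) and after quantile normalization (-1.32, 9.12% of all lower). Hoxb1 was then higher (1.02 after centring, 7.25% of all higher, and 1.15 after quantile normalization, 6.9% of all higher), as was Hoxb9 after quantile normalization (1.11). In 1B at day 0, 4 were higher than in parental MEFs (5.55% of all), Hoxc5 (2.17), Hoxb2 (1.92), Hoxb9 (1.23) and Hoxb4 (1.08), and 3 lower (6.37% of all), Hoxd13 (-1.71), Hoxa10 (-1.19) and Hoxa11 (-1.16). Both comparisons share the parental array. Set against 6C at day 0, 1B at day 0 had 4 Hox genes higher (11.1% of all), Hoxb2 (2.12), Hoxc5 (1.68), Hoxa5 (1.66) and Hoxa6 (1.58), and 0 lower (2.43% of all). These are single arrays with no test. The parental array also stood apart in chondrocyte markers: the mean level over the 6 was 7.09 in 6C and 6.98 in 1B at day 0, against 9.38 in parental MEFs, with median differences from parental MEFs of -2.19 in 6C and -2.44 in 1B. Comp, a cartilage matrix protein, read 6.34 in 6C and 6.64 in 1B, against 11.90 in parental MEFs. The part of these markers in the Hoxd13 and Hoxa11 values was not tested.

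Around the Hox genes, the other genes of the system were read from lists, beside 5.44% of all transcript clusters called higher in iPS cells and 3.32% called lower. Of 9 measured TALE homeodomain genes, a family that includes the DNA-binding partners of Hox proteins but is not limited to them, 1 was called higher in iPS cells and 0 lower. This was Tgif2, which rose by 1.49 (limma adjusted p = 0.0497). In the 6C series 2 of the 9, Meis1 and Meis2, were called with fitted values below day 0 at the end, as were 2.49% of all (limma adjusted p = 0.0414 and 0.031). In 6C they did not fall under Dox: Meis2 was above day 0 on every Dox array, and Meis1 up to day 16 and level at day 21. The 6C day 0 array, to which they are compared, had the lowest median of all arrays. The low array of the 6C series was that of secondary iPS cells, with 7.44 for Meis1 and 6.90 for Meis2, against 8.63 and 7.99 at day 0. In line 1B, 5 days of Dox took Meis1 from 9.37 down to 7.41, and Meis2 from 9.53 to 9.24, with no test. Of 11 upstream regulators, 1 was called higher and 0 lower; Psip1, a chromatin partner of MLL proteins, rose by 1.90 (limma adjusted p = 0.0382). Of 21 genes listed by name as neighbours of the Hox clusters, 16 were measured, all within 1 Mb of a cluster. The list was not a search of all genes within that distance. Of the 16, 1 was called higher and 0 lower in iPS cells, Calcoco2, an autophagy receptor (5.94, limma adjusted p = 0.0085). A difference below 0 was found for 3 of 16, against 51.7% of all transcript clusters. The median of these neighbours was 0.42, against -0.79 for the Hox genes. Of 29 positional transcription factors outside the Hox clusters, 0 were called higher and 4 lower: Lhx9 (-3.45), Tbx15 (-3.14), Prrx2 (-3.13) and Tbx18 (-2.88), factors of limb and trunk mesenchyme, with a median of -1.25 over the list. Beside 5.44% of all, a single call in a list of 9, 11 or 16 genes is no result about that list.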

How the data were processed

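The authors deposited gene-level log2 values, 1 per transcript cluster and array. Per the submitters' processing notes, RMA was run in Affymetrix Expression Console, and the build named is mm9. The log base is not stated and was taken as 2 from the values, 0.461 to 14.3. RMA removes background, equalises the arrays and compresses low values. Of 23332 clusters, 14996 had 1 gene symbol in the platform annotation, 1019 had several and 7317 had none, and only the first kind was named; symbols were updated through gene identifiers for 14941. Every Hox gene had 1 cluster. No gene coordinates are given, since the RefSeq tables are of GRCm38.p6; promoter windows are RefSeq's own.

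limma 3.58.1 in R 4.3.3 was run on all clusters: iPS (2 arrays) against untreated (3), the 6C series with a polynomial of degree 3 (8 arrays), and day 5 against day 0 with line as a block (4). Single arrays were compared without a test. Scripts were tested on simulated data. No label names separate cultures of a condition, so p-values measure the spread between these arrays, which come from different lines, and their number limits the precision. The untreated and day 5 replicate numbers only name samples; the pairing at day 5 comes from the line. Alternatives were quantile normalization, centring, a filter keeping clusters at or above the table median on at least 2 arrays, other fits and leaving out each array; 3 were added after seeing the data. Values on every array are given for called Hox genes, for those with the largest group differences up to 12 in all, and for both ends of each cluster. The Hox genes and the lists were chosen with earlier results of these data known. The names of the 6C arrays for day 0 and day 8 give other days; the sample labels were followed.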

Additional observations from a re-analysis of the deposited data

Results flagged for a closer look

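At day 5 of Dox, 5 Hox genes were at least 1.5-fold higher than at day 0 in 6C and at least 1.5-fold lower than at day 0 in 1B, as were 6.33% of all transcript clusters. With 1 array per line and day, the difference between the lines was not tested. Hoxa2 changed by 2.29 log2 units in 6C and by -0.68 in 1B, a difference between the lines of 2.98. Hoxa11 changed by 0.63 in 6C and by -1.69 in 1B, a difference of 2.32. Hoxa6, a gene of the upper trunk, changed by 0.63 in 6C and by -1.44 in 1B, a difference of 2.07. Hoxb4, known from blood stem cells, changed by 0.72 in 6C and by -0.88 in 1B, a difference of 1.60. Hoxc9, a gene of the thoracic spinal cord, changed by 0.64 in 6C and by -0.84 in 1B, a difference of 1.48. These directions depended on the scaling of the arrays. After centring, 0 Hox genes met both limits (3.2% of all): the changes in 6C were 1.96 for Hoxa2, 0.30 for Hoxa11, 0.30 for Hoxa6, 0.39 for Hoxb4 and 0.31 for Hoxc9, and Hoxa2 changed by -0.55 in 1B. After quantile normalization 1 did, Hoxa2 (2.02 in 6C and -0.60 in 1B), as did 3.69% of all.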

How the results depend on the processing

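The Hox median of iPS minus untreated stayed below 0 under each alternative run. Leaving out 1 array at a time, the number of Hox genes called lower ran between 0 and 3 and the median between -1.05 and -0.62; anterior medians ran between -0.86 and -0.28, central between -1.01 and -0.56, posterior between -1.37 and -0.77, Hoxa between -1.54 and -1.20, Hoxb between -0.77 and -0.40, Hoxc between -1.50 and -0.99, and Hoxd between -0.83 and -0.51. With all 13 arrays in the fit, 3 were called (1.25% of all called lower). The filter on low values kept 25 Hox genes, dropping low ones, and gave medians of -1.09 over these, -0.78 anterior, -1.01 central, -1.68 posterior, -1.77 Hoxa, -1.68 Hoxc and -1.70 Hoxd. A gene could pass this filter through the untreated arrays alone, as Hoxa5, Hoxa9, Hoxc6 and Hoxc10 did. The same held for Hoxb3, Hoxb5, Hoxb7, Hoxc4, Hoxc5, Hoxc9 and Hoxd9. The filtered medians are therefore no separate support for lower values in iPS cells. Central genes defined as paralog groups 5 to 8 had a median of -1.29, and primary iPS minus parental, within 1 set of array names, -1.15. In the 6C series, 7 Hox genes were called after quantile normalization (8.24% of all), 5 after centring (7.57%), 8 after the filter (24.6% of the clusters kept), 6 with a polynomial of degree 2 (6.44%), 5 with day 0 replaced by the untreated mean (7.5%), 0 with the name set as a block (0.0%), and 0 to 1 without 1 array (0.647% to 3.18%); the fitted end of Hoxa9 ran between -2.02 and 1.42 without 1 array, 1.42 being that without the iPS array. The cause of these changes was not tested.

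Scaling moved single array medians, given as quantile normalization, then centring. Against 6C day 0 they were -0.40 and -0.20 for day 2, -0.32 and -0.19 for day 5, -0.63 and -0.56 for day 8, -0.53 and -0.42 for day 11, -0.70 and -0.54 for day 16, -0.80 and -0.69 for secondary iPS cells and -0.11 and 0.0129 for 1B day 0, with -0.42 after quantile normalization for day 21. Against parental MEFs they were -0.99 and -0.91 for primary iPS cells and 0.20 and 0.091 for 6C day 0. Secondary minus primary iPS was 0.34 after centring. A random block of name sets could not be fitted on the 5 iPS and untreated arrays; over all 13 arrays it left 6 Hox genes called lower (3.25% of all). Averaging several clusters of a gene gave nothing new, since each Hox gene had 1. The day 5 fit was paired by line; without that block, as with it, 0 Hox genes and 0 of all clusters were called, while centring with the block called 593 of all clusters and 0 Hox genes.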

Other observations

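Hoxa3 and Hoxd4 were measured by transcript clusters that also carry another symbol, Hoxaas3 and Hoxd3, so their values belong to no single gene. The cluster of Hoxa3 and Hoxaas3 read 4.90 in secondary and 4.69 in primary iPS cells, against 6.40, 5.77 and 6.69 in parental, 6C and 1B untreated fibroblasts. The cluster of Hoxd4 and Hoxd3 read 5.25 in secondary and 4.94 in primary iPS cells, against 6.14, 6.00 and 6.16 in parental, 6C and 1B untreated fibroblasts. In both clusters the 2 iPS arrays lay below every untreated array.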
